A study of Mus musculus with 6 samples.

Results

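The comparison of day 2 with day 0 covers the step in which confluent C2C12 myoblasts, an established mouse muscle precursor cell line, are held in low serum and turn into multinucleated muscle cells. It rests on 2 of the 6 arrays of the series. Parental cells were cultured in growth medium with 10% fetal bovine serum and, at confluence, moved to differentiation medium with 2% horse serum. The day 0 array came from cells at the start of differentiation and the day 2 array from cells 2 days later, and the labels name no transfection for either. Parental cells in growth medium and at day 4 were read on 1 array each and are given as levels beside the pair. A further 2 arrays hold stable day 0 lines with an Rp58 hairpin or a control vector, which the labels do not describe as clones or pools. For every gene with a probe set of its own, the log2 value at day 0 was subtracted from that at day 2, and the median difference of all genes was set to 0. Where a gene had several probe sets, the brightest over the 6 arrays was used. With 1 array a side there is no replicate error: nothing was tested, and all differences describe these 2 cultures, with a precision limited by the number of arrays.

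Myoblasts divide in rich medium and leave the cell cycle when serum is withdrawn. Helix-loop-helix factors of the MyoD family, with Mef2 partners, then switch on genes of the contractile apparatus, and the Id proteins oppose them by binding their E protein partners. The cells fuse, and myosin thick filaments, actin thin filaments and the calcium release machinery are assembled into sarcomeres. Genes of mitosis and of DNA replication are largely controlled through short promoter elements, among them the cell cycle homology region (CHR), the CCAAT box and E2F sites, while E-boxes and Mef2 sites are known from muscle genes.

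Of 18194 genes, 13242 reached 7.95, the median of all array values, on at least 1 array and were kept. At day 2, 354 of these genes (2.67% of those kept) stood at least 2-fold higher than at day 0 and 392 (2.96%) at least 2-fold lower. The central 95% of kept genes lay between -1.08 and 1.04 on the log2 scale. Differences of 8-fold or more were found for 20 genes on the higher side and 5 on the lower side. The median difference of kept genes was -0.01, and it ran from 0.06 in the dimmest of 5 equal groups of genes by mean level to -0.09 in the brightest. A second reading of the same RNA came from genes with several probe sets. Among the 160 such genes on the higher side, all other probe sets had the same sign for 134 (83.8%), and among the 225 on the lower side for 188 (83.6%), against 54.5% of all 7798 kept genes with several probe sets. Another probe set was also past 2-fold in the same direction for fewer of them, 75 of the 160 and 137 of the 225. Most of the 7798 genes lay within 2-fold of day 0, where a sign says little, so their share is not a like comparison. No gene past 2-fold had another probe set past 2-fold in the opposite direction.

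Muscle identity was read from marker genes. Des and Myod1, which mark muscle cells, stood at 13.60 and 12.80 at day 0 and at 13.97 and 12.64 at day 2. The summed linear intensity of 10 muscle markers was 80189 at day 0 and 150840 at day 2. Of 11 endothelial markers, 7 lay below 7.95 on both arrays, and the 11 leukocyte markers summed to 4562 and 5047. The 12 cardiac markers summed to 23766 and 47891, but the heart factor Nkx2-5 and the peptide gene Nppa differed by 0.07 and 0.03, and the higher members (Tnnt2, Actc1 and Tnni3) are thin filament genes. Their part in the muscle values was not tested. The medians of all probe sets were 8.26 and 8.27 on the 2 arrays. Fewer cells of a kind and less RNA per cell cannot be told apart in such whole-culture samples.

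**Figure D1:**
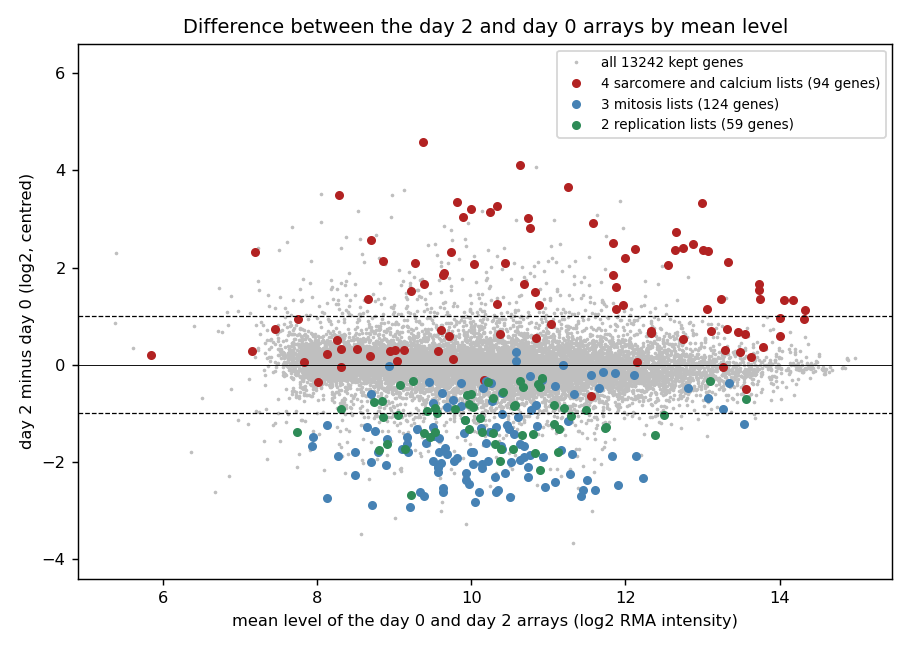
Each point is a kept gene, placed by its mean log2 RMA level on the day 0 and day 2 arrays (horizontal) and its centred log2 difference (vertical); dashed lines mark 2-fold. Genes of 4 sarcomere and calcium lists (red, 94 genes, 52 of them at least 2-fold higher) lie mostly above 0, and those of 3 mitosis lists (blue, 124 genes, 92 at least 2-fold lower) mostly below it.

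Short sequences were searched in the promoters of the gene groups that lay furthest from 0. Of these, 8 promoters with a match are printed below, from genes with large differences in their group. They are not a strict ranking: several mitosis genes lay further from 0 than Cdc20 and Kif2c and are not shown. Among these were Melk (-2.93), Kif20a (-2.82), Cdc25c (-2.74) and Plk1 (-2.71). Genes were passed over where no match lay in the 250 bases before the start, or where their chromosome was not used for printing. The printed promoters therefore do not show how common a match was. The sequences are the 250 bases before the gene start in RefSeq GRCm38.p6, written 5′ to 3′ on the gene's strand. In the mitosis genes Depdc1a (chr3:159495183-159495432, plus strand), Cdc20 (chr4:118437344-118437593, minus strand) and Kif2c (chr4:117178773-117179022, minus strand), capitals mark the CHR (TTTGAA on either strand) and CCAAT boxes.
Depdc1a: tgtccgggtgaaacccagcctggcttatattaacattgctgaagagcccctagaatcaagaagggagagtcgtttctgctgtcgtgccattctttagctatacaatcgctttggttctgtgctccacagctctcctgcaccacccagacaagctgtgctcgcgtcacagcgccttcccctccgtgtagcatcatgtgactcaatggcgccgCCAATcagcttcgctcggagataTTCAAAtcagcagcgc
Cdc20: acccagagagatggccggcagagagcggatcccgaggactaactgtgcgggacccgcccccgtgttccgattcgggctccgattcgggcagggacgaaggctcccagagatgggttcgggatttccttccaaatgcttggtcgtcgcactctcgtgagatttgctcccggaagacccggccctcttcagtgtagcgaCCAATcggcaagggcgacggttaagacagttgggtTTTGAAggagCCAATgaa
Kif2c: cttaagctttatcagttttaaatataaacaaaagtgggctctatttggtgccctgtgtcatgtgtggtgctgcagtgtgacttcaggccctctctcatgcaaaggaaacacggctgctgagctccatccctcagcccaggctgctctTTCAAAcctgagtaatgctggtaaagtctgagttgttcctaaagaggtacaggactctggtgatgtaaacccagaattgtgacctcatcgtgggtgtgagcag
In the replication genes Cdc6 (chr11:98907901-98908150, plus strand) and Mcm5 (chr8:75109259-75109508, plus strand), capitals mark E2F-like letters on either strand. The letters TTCCCGC were searched, as were the letters TTGGCGC and, in a further form, TTCGCGC. A pair of the 3 matches in Mcm5 overlap, and CCAAT boxes are left in lower case here.
Cdc6: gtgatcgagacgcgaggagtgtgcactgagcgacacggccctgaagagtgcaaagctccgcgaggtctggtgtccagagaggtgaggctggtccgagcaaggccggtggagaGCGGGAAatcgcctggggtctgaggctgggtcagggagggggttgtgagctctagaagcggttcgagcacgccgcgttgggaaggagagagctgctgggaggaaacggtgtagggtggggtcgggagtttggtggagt
Mcm5: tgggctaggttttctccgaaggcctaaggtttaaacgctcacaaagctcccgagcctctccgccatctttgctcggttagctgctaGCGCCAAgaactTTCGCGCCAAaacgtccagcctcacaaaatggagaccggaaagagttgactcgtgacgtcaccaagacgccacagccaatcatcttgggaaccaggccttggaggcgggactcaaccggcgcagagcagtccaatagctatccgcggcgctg
In the sarcomere genes Myl2 (chr5:122092939-122093188, plus strand), Csrp3 (chr7:48843672-48843921, minus strand) and Myoz2 (chr3:123034988-123035237, minus strand), capitals mark E-boxes (CAGCTG or CAGGTG on either strand) and, in Myoz2, a Mef2-like run, which is CTA and TAG with 4 A or T bases between. Myl2 and Csrp3 have 2 starts each in the table, and a start with a match is shown.
Myl2: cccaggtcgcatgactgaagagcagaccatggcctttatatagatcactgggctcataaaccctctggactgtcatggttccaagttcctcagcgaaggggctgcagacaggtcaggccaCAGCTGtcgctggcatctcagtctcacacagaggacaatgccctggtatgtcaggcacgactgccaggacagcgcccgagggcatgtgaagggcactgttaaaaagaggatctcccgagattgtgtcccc
Csrp3: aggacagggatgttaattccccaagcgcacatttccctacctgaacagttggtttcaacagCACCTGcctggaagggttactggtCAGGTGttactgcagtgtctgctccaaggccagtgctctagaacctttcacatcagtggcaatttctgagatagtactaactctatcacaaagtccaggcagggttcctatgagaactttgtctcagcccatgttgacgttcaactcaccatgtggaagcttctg
Myoz2: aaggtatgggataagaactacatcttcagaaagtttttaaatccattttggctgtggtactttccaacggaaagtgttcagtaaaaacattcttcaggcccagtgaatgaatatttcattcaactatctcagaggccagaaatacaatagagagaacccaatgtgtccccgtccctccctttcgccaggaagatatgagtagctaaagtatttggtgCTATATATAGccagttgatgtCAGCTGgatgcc

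Over 300 bases around the start, a CHR was found in 48.7% of 115 promoters of kept mitosis genes, a CCAAT box in 67.8% and both in 38.3%. Among promoters of all kept genes these shares were 12.5%, 37.4% and 4.8%. E2F-like letters were found in 55.2% of 58 promoters of kept replication genes and 13.1% of those of all kept genes. An E-box was found in 56.2% and a Mef2-like run in 5.6% of 89 promoters of kept sarcomere and calcium genes, against 31.0% and 0.5%. In all 32851 promoters of the table the shares were 17.9% for the CHR, 37.4% for CCAAT, 8.1% for E2F, 32.9% for the E-box and 0.6% for Mef2. Taking all genes past 2-fold, lower genes held a CHR in 29.1% and E2F letters in 27.4% of 361 promoters. Higher genes held them in 12.4% and 6.3% of 378 promoters, and an E-box in 40.7%. A match shows that the letters are present and not that a factor was bound, which was not measured.

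Genes of the thick filament had the highest median of the 63 lists, for which 2037 gene names were listed and 1762 were kept. Of 21 kept members 14 lay at least 2-fold above day 0 and 0 below it, and the median was 2.13. Of the 21, 15 reached the filter level on both arrays. Under other scalings, filters and probe set choices the median ran from 1.66 to 2.37. Myl2, the regulatory light chain of slow and cardiac muscle, read 6.51, 7.09, 11.67 and 12.35 on the growth medium, day 0, day 2 and day 4 arrays. It was 4.58 higher at day 2 than at day 0, the largest difference of all kept genes, although its day 0 value lay below the filter level of 7.95. Myh7, the slow myosin heavy chain, read 8.66 at day 0 and 11.81 at day 2 (3.15 higher), and Myh8, the perinatal chain, 6.54 and 10.03 (3.50). The embryonic chain Myh3 was already at 12.27 at day 0 and reached 14.40 at day 2, a difference of 2.12. Heavy chains of slow, perinatal, embryonic and adult fast type (Myh1, 2.91) were thus all higher on the same array. The other probe sets of Myh1 ran from 0.49 to 3.06, and the adult fast chain Myh2 was not kept. Among light chains, Myl4 stood 3.33 higher on its brightest probe set and 0.76 on the other. The M-band protein gene Myom1 stood 3.04 higher.

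Of 18 thin filament genes 12 lay at least 2-fold above day 0 and 0 below it, and the median was 1.34. Troponin subunits of both fibre types stood higher: the 3 slow subunits had a median difference of 1.66 and the 3 fast subunits one of 2.49. Fast troponin T (Tnnt3) read 7.83, 11.29, 14.03 and 14.54 on the growth medium, day 0, day 2 and day 4 arrays. Lmod2, which nucleates actin filaments, read 6.45, 8.70, 11.97 and 12.76 in the same order, 3.27 higher at day 2 than at day 0. Skeletal alpha-actin (Acta1) differed by 1.13 from a day 0 level of 13.76. The lowest member was the tropomyosin Tpm3 at -0.49.

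Z-disc and titin-associated genes differed less as a group, with 14 of 29 at least 2-fold higher and a median of 0.75. Csrp3, a LIM protein of the Z-disc, read 7.38, 8.58, 12.69 and 13.17 on the growth medium, day 0, day 2 and day 4 arrays, and its difference of 4.11 corresponds to 17.2-fold. Myoz2, which binds calcineurin and alpha-actinin, stood 3.65 higher, and the stretch-associated ankyrin repeat genes Ankrd23 and Ankrd2 stood 3.20 and 2.82 higher. Their relative Ankrd1 differed by 0.27 and Fhl1 by 0.17. With a filter on the other 4 arrays the median was 1.20, and 1.14 for the calcium genes described next. The group therefore held both some of the largest differences of all genes and members that differed by little.

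Of 26 genes of calcium release and the sarcoplasmic reticulum, 12 lay at least 2-fold above day 0 and 0 below it, and the median was 0.78. Cacna1s, the voltage sensor of excitation-contraction coupling, read 7.36, 8.14, 11.49 and 12.25 on the growth medium, day 0, day 2 and day 4 arrays (3.35 higher at day 2 than at day 0). The release channel gene Ryr1 stood 2.51 higher, its partner triadin (Trdn) 2.31. The calcium-storing Casq1 read 10.11, 9.23, 12.25 and 13.67 on the 4 time-course arrays, so its day 0 value was the lowest of the 4. Casq2 stood 2.37 higher, while the slow reticulum pump Atp2a2 differed by -0.05 and its fast paralogue Atp2a1 by 1.24.

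**Figure D2:**
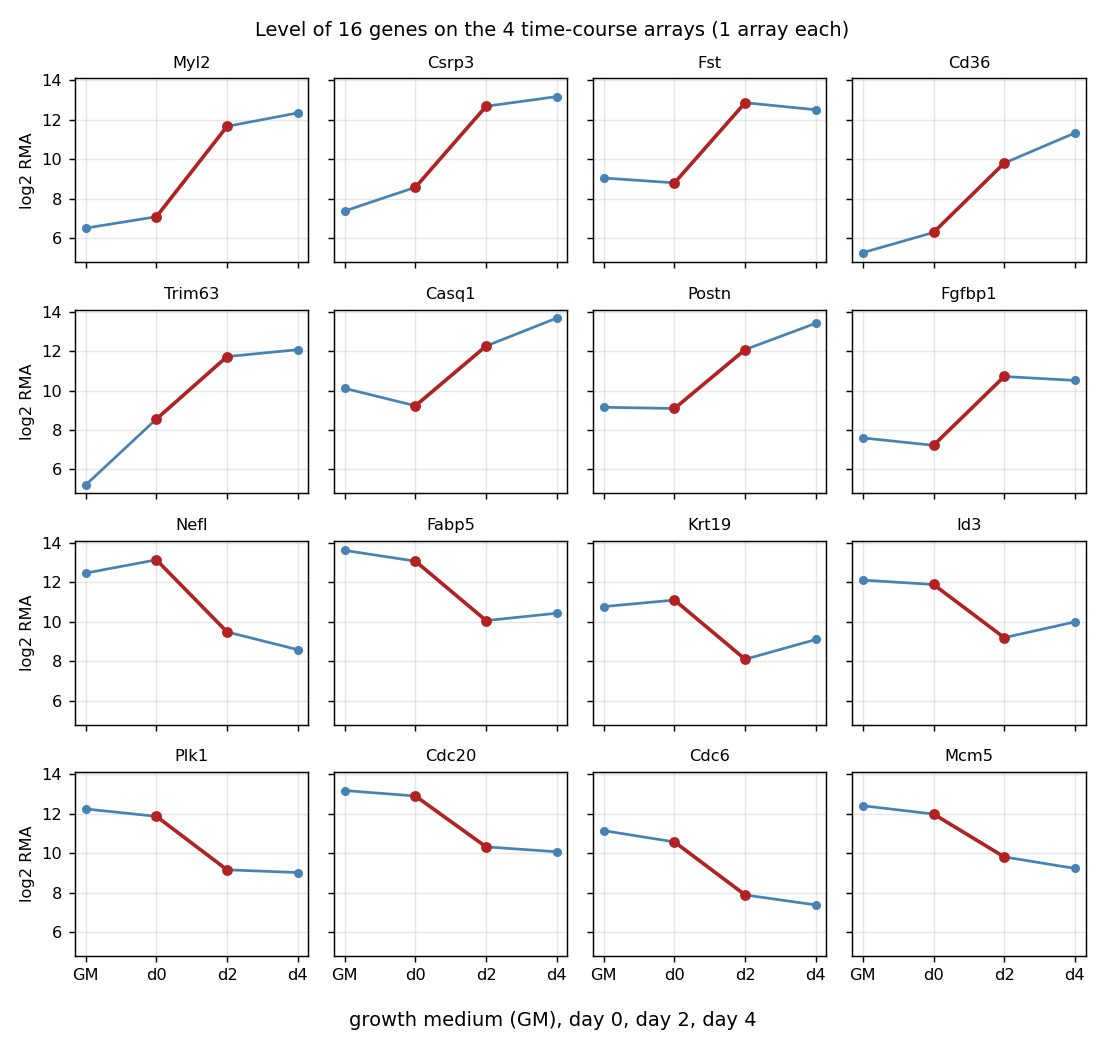
Log2 RMA level of 16 genes on the 4 arrays of the time course, 1 array per point, from growth medium (GM) to day 4, with day 0 to day 2 in red. Muscle and secreted genes in the upper rows were higher at day 2 than at day 0, and Nefl, Fabp5, Krt19, Id3 and the cell cycle genes in the lower rows were lower.

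At the membrane, 3 of 12 genes of the neuromuscular synapse were at least 2-fold higher (median 0.47). These were the fetal acetylcholine receptor subunit Chrng (1.73), the agrin receptor Lrp4 (1.40) and Erbb3 (1.29), of which Erbb3 dropped to 0.58 with the mean of all probe sets. Over the 4 fetal receptor subunits the median was 0.69. Among 29 fusion and surface genes, 6 lay 2-fold or more above day 0 and 3 below it (median 0.12). The fusogens Mymx and Mymk stood 1.83 and 1.37 higher, and both had already been brighter at day 0 than in growth medium, at 10.41 against 6.63 and 12.62 against 9.94. Cav3, the caveolin of muscle, read 7.54 at day 0 and 9.66 at day 2, while Cav1 read 12.27 and 10.53. Of 14 dystrophin complex genes 4 were at least 2-fold higher, with Sspn at 1.15 and Sgca at 1.07, and 1 of them with the mean of all probe sets.

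Of 17 ubiquitin ligases and adaptors of muscle, 7 stood at least 2-fold higher (median 0.58). Trim63, the RING ligase MuRF1, read 5.22, 8.55, 11.72 and 12.07 on the growth medium, day 0, day 2 and day 4 arrays. Klhl41 and Klhl40, adaptors of cullin ligases, stood 2.82 and 2.24 higher, and Fbxo32, the F-box protein atrogin-1, 1.40. In the chaperone list 5 of 27 genes were at least 2-fold higher with a median of -0.04. These were the small heat shock proteins Hspb7 (2.78), Hspb3 (1.55) and Hspb2 (1.05), the myosin chaperone Unc45b (2.46) and Dnajb5 (1.08, or 0.48 with the mean of all probe sets). The general chaperone Hspa4 differed by -0.57, and Unc45a by -0.65.

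Myogenic regulators lay near 0 as a group. Of 33 myogenic regulators 2 lay at least 2-fold above day 0 and 2 below it, and the median was 0.08. The lower 2 were Vgll2 (-1.12) and the E protein gene Tcf3 (-1.10), while the E protein genes Tcf4 and Tcf12 differed by 0.50 and -0.20. Mef2c read 8.19, 9.79, 11.83 and 13.46 on the growth medium, day 0, day 2 and day 4 arrays, a difference of 2.04 with other probe sets at 1.40 to 2.15. Myog read 13.34 at day 0 and 14.33 at day 2, 0.99 higher and so just under 2-fold, as was Zbtb18 (Rp58) at 0.98. Myod1 differed by -0.16 and Myf5 by -0.86. Of 26 genes listed as repressors of myogenesis 7 lay 2-fold or more below day 0 and 2 above it. Id3 read 12.11, 11.89, 9.20 and 10.00 on the 4 time-course arrays, a difference of -2.69, and Id1 and Id2 differed by -1.56 and -1.47. Msc, a helix-loop-helix repressor, differed by -2.03. The higher members of this list were Klf5 (1.23, or 0.76 with the mean of all probe sets) and Bhlhe40 (1.05). Whether these 2 genes act as repressors in these cells was not tested. Of 24 regulators of RNA processing 16 lay below 0 (median -0.21) and 2 were at least 2-fold higher. These were Rbm24 (1.38, or 0.96 with the mean of all probe sets) and Rbm38 (1.27), while the splicing regulators Mbnl1, Celf1 and Mbnl3 differed by 0.30, -0.17 and -0.59.

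Muscle forms of enzymes and structural proteins were set beside paralogues of broad expression. The 21 pairs were chosen after values were seen, so their count supports nothing. In 17 pairs the general form lay below 0 and the muscle form above it, and in 5 both were past 2-fold in opposite directions. Phosphofructokinase was such a case: the liver-type Pfkl read 12.95 at day 0 and 11.53 at day 2, and the muscle-type Pfkm read 11.55 and 12.96. The fatty acid binding protein Fabp5 read 13.07 at day 0 and 10.06 at day 2, a difference of -3.01, while heart-type Fabp3 stood 2.93 higher on its brightest probe set and 0.26 on the other. The glycogen phosphorylase of muscle, Pygm, read 8.63 at day 0 and 11.22 at day 2, while Pygb differed by -0.49. For Pfkl the difference was -0.98 with the mean of all probe sets. Not every pair was split: Eef1a1 and Eef1a2 differed by 0.10 and 0.08, Slc25a5 and Slc25a4 by -0.17 and -0.13, and Phka2 and Phka1 by 0.18 and 0.02.

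**Figure D3:**
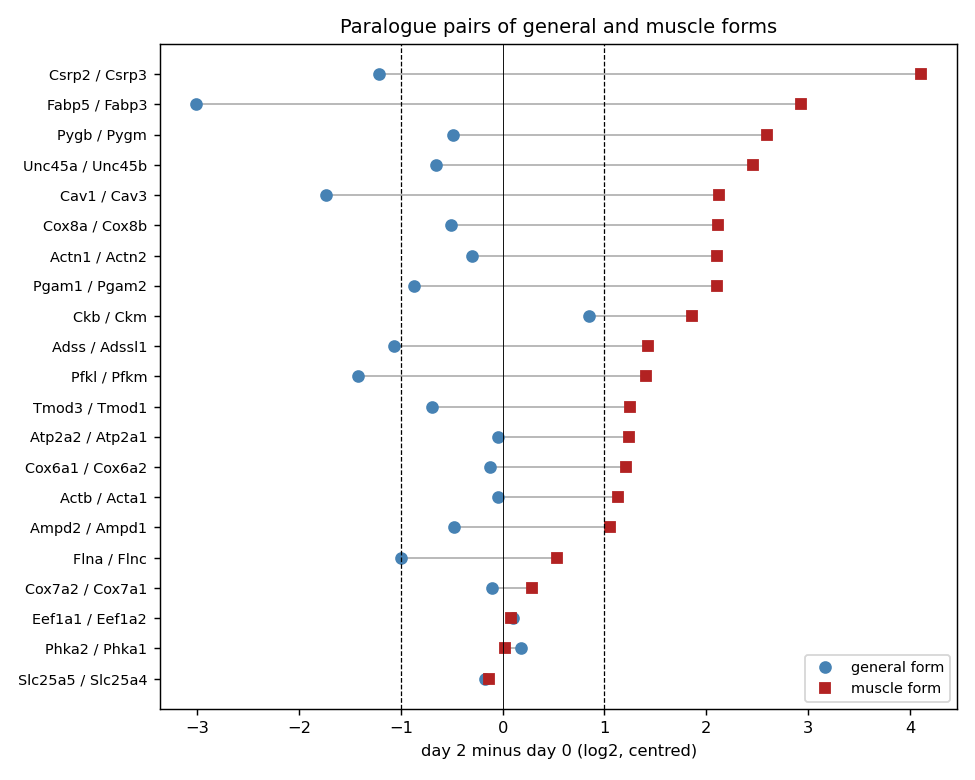
Centred log2 difference between day 2 and day 0 for 21 paralogue pairs, sorted by the muscle form; circles are general forms, squares muscle forms, and dashed lines mark 2-fold. The muscle form lies to the right of the general form in 19 pairs, and the 3 lowest pairs lie close to 0 for both.

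Outside these paralogues, metabolic groups lay near 0. Of 75 oxidative phosphorylation genes 2 were past 2-fold, the muscle cytochrome oxidase subunits Cox8b (2.11) and Cox6a2 (1.21), and the median was -0.05. None of 25 citrate cycle genes and none of 25 mitochondrial dynamics and import genes reached 2-fold. Genes of oxygen and fatty acid handling included larger differences. Myoglobin (Mb) read 10.26 at day 0 and 13.62 at day 2 on its brightest probe set, while the other differed by 0.06. Cd36, the fatty acid transporter, read 5.27, 6.29, 9.80 and 11.33 on the 4 time-course arrays. The muscle creatine kinase Ckm stood 1.86 higher on its brightest probe set and -0.01 on the other, which gave 0.93 with the mean of all probe sets, and Ckb stood 0.85 higher.

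Mitosis genes lay below 0 almost throughout. Of 124 kept genes in 3 lists 92 lay at least 2-fold below day 0 and 0 above it, and the median was -1.69. Plk1, the polo kinase that drives mitotic entry, read 12.24, 11.86, 9.15 and 9.01 on the growth medium, day 0, day 2 and day 4 arrays, a difference of -2.71. Cdc20, which activates the anaphase-promoting complex, read 13.17, 12.89, 10.31 and 10.07. In both cases the growth medium and day 0 levels lay close together and the day 2 and day 4 levels lay close together. The kinesin Kif20a differed by -2.82, the spindle assembly factor Tpx2 by -2.62 and the centromeric histone Cenpa by -2.51 on their brightest probe sets. Other probe sets reached 0.36 for Tpx2 and 0.92 for Cenpa, and with the mean of all probe sets the differences were -1.03 and -0.69. The proliferation marker Mki67 differed by -2.28. Melk, Depdc1a and Cdc25c, at -2.93, -2.89 and -2.74, ended below the filter level at day 2, so their sizes are less exact.

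**Figure D4:**
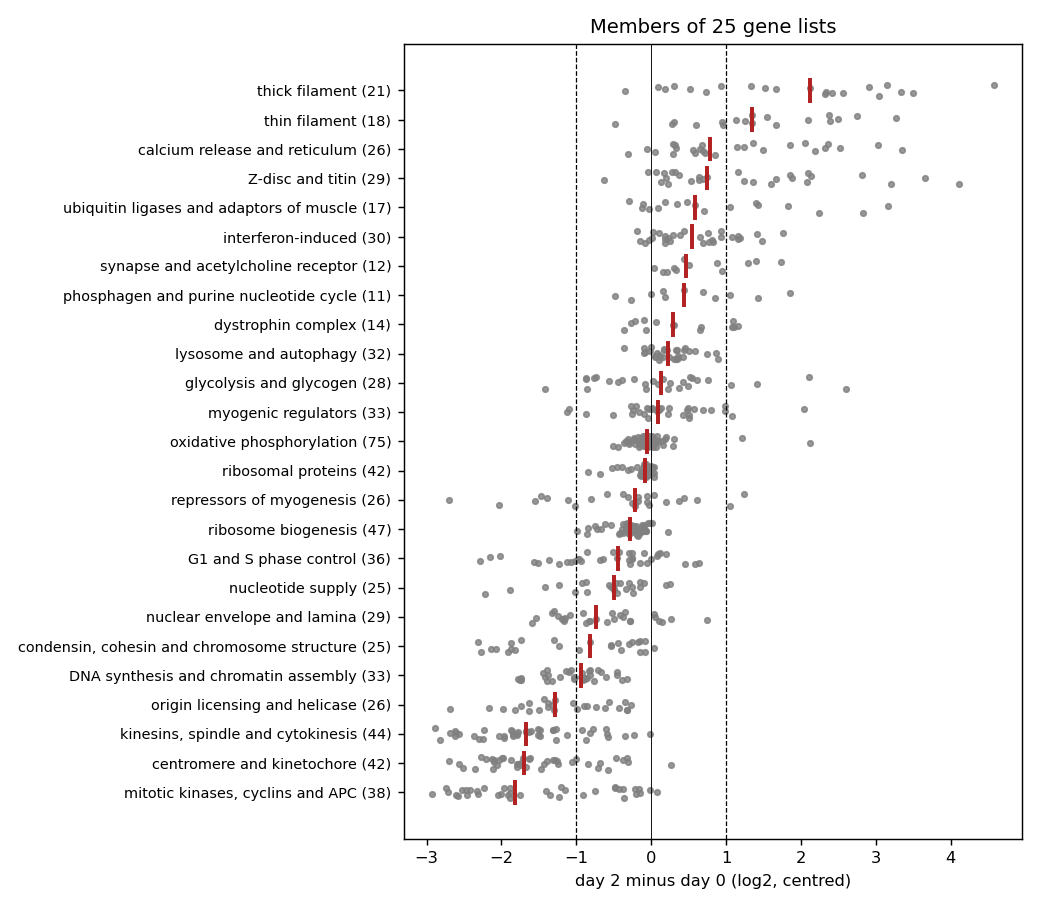
Centred log2 difference of each kept member (grey points) of 25 gene lists, with the number of members in brackets and the list median in red; dashed lines mark 2-fold. Lists run from thick filament (median 2.13) to mitotic kinases, cyclins and APC (median -1.82), and oxidative phosphorylation and ribosomal proteins lie close to 0.

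Within large assemblies, some parts lay far below 0 and others near it. The complexes were chosen after values were seen. The 9 core subunits of the anaphase-promoting complex had a median of -0.21 with none past 2-fold, while its 5 activators, inhibitors and E2 enzymes had one of -2.31 with 4 past 2-fold. All 6 subunits of the MCM2 to MCM7 helicase were at least 2-fold lower (median -1.38), but none of the 6 subunits of the origin recognition complex (median -0.39). The 3 condensin I subunits differed by -1.92 to -1.73, and the 5 cohesin subunits by -0.44 to -0.16. At the kinetochore, all 4 subunits of the Ndc80 complex were at least 2-fold lower and none of the 4 of the Mis12 complex. Under other scalings, filters or probe set choices the Ndc80 subunit Spc25 came as near to 0 as -0.80, short of 2-fold. The 4 chromosomal passenger subunits had a median of -2.34.

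**Figure D5:**
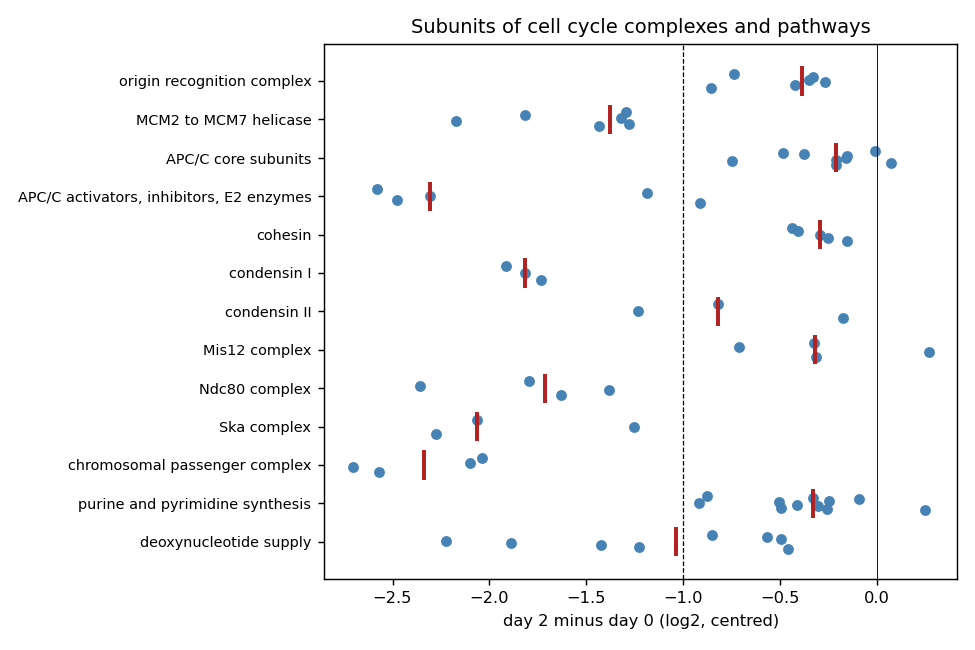
Centred log2 difference of single subunits (points) of 13 complexes and pathways, with medians in red and 2-fold lower dashed. Origin recognition, core APC/C, cohesin and Mis12 subunits lie to the right of the dashed line, and MCM, condensin I, Ndc80, Ska and passenger complex subunits to its left.

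Replication genes followed with smaller differences. In 2 lists 31 of 59 kept genes lay 2-fold or more below day 0 and 0 above it (median -1.03). Cdc6, which loads the helicase onto origins, read 11.14, 10.56, 7.88 and 7.37 on the 4 time-course arrays, a difference of -2.69 that ended below the filter level. Mcm5 read 12.40, 11.98, 9.81 and 9.22. The sliding clamp gene Pcna differed by -0.71 and Fen1 by -0.32, so replication genes were not lowered alike. In deoxynucleotide supply, 4 of 8 genes were past 2-fold (median -1.04), with thymidine kinase Tk1 at -2.22, whereas none of 11 genes of purine and pyrimidine synthesis was (median -0.33).

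Of 36 G1 and S phase regulators 10 lay 2-fold or more below day 0 and 0 above it (median -0.45). Cyclin A2 (Ccna2) differed by -2.29, cyclin E2 (Ccne2) by -2.02 and cyclin D1 (Ccnd1) by -1.52, but cyclin D3 (Ccnd3) by 0.12. The pocket proteins were split: Rbl1 differed by -1.36, Rbl2 by 0.59 and Rb1 by 0.64. Among 21 genes of CDK inhibitors and cell cycle exit, 2 lay 2-fold or more above day 0 and 3 below it (median 0.16). The CDK inhibitor Cdkn1a stood 0.73 higher from a day 0 level of 13.52, short of 2-fold, and the growth arrest gene Gadd45a 2.03 higher. Its relative Gadd45g differed by -1.14, Fzr1 by -1.19 and Cdkn3 by -1.37, and the inhibitors Cdkn2d and Cdkn2c by -0.82 and -0.70. Of 39 genes of chromatin and DNA methylation 7 lay 2-fold or more below day 0 and 0 above it (median -0.26). Uhrf1, which guides the methylation of newly made DNA, differed by -2.49, the methyltransferase Dnmt1 by -1.40 and the polycomb enzyme Ezh2 by -1.39. Ezh1 differed by 0.55, the remodeller Hells by -0.39 and the histone-binding Rbbp4 by -0.12. The B-type lamins Lmnb1 and Lmnb2 differed by -1.29 and -1.25.

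Growth and housekeeping groups differed little per gene. Of all kept genes 48.0% lay above 0 and 52.0% below it. Of 47 ribosome biogenesis genes 45 lay below 0 and none reached 2-fold (median -0.28), with the nucleolar Fbl lowest at -0.98. Of 42 ribosomal protein genes none reached 2-fold (median -0.08), nor did any of 29 proteasome (median -0.18) or 21 aminoacyl-tRNA synthetase genes (median -0.23). Of 32 lysosome and autophagy genes 26 lay above 0 with none past 2-fold (median 0.23). The brightest of the 5 groups of genes by level had a median of -0.09, and under other scalings or probe set choices the medians of ribosomal protein and proteasome genes came as near to 0 as -0.01 and -0.09. The reference genes Gapdh, Actb and Rplp0 differed by -0.08, -0.05 and -0.04.

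Secreted signalling genes included some of the largest differences. Follistatin (Fst), which binds activins and myostatin, read 9.05, 8.80, 12.87 and 12.51 on the growth medium, day 0, day 2 and day 4 arrays, a difference of 4.06 with 3.50 on its other probe set. Fgfbp1, a carrier of fibroblast growth factors, read 7.60, 7.22, 10.71 and 10.51, and the BMP family ligand Gdf5 7.80, 7.43, 10.11 and 9.95. For these 3 genes the growth medium and day 0 values lay together and the day 2 and day 4 values lay together. For Fgfbp1 and Gdf5, however, the growth medium and day 0 values lay below the filter level of 7.95, so they are less exact. Igf2, the growth factor of developing muscle, stood 1.92 higher on its brightest probe set and 0.13 on the other, and the binding protein Igfbp4 1.64 higher. Of 37 TGF-beta and BMP genes 5 lay 2-fold or more above day 0 and 0 below it (median 0.20). In the growth factor and MAPK list, Spry1 stood 1.34 higher, while the ETS factor Etv4 and the EGF receptor ligand Hbegf differed by -1.36 and -1.11, or by -0.79 and -0.87 with the mean of all probe sets. Of 23 Notch genes 3 were at least 2-fold lower, the targets Heyl (-1.39) and Hey1 (-1.11) and the modifier Lfng (-1.01, or -0.64 with the mean of all probe sets). Of 23 immediate-early genes Fosl1 differed by -1.88 and no other passed 2-fold.

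Of 30 interferon-induced genes 7 lay 2-fold or more above day 0 and 0 below it (median 0.54). Of these genes 24 reached the filter level on both arrays, and over those 24 the median was 0.27, with 4 past 2-fold. Ifit1, which binds foreign RNA, read 6.29, 6.94, 8.70 and 7.02 on the growth medium, day 0, day 2 and day 4 arrays, above the filter level at day 2 only. Irf9, a subunit of the interferon-activated transcription factor, read 7.99, 8.39, 9.58 and 8.44. The day 2 value was the highest of the 4 arrays for both. Complement C1 genes stood higher as well, C1ra by 1.46, C1s1 by 1.35 and the inhibitor Serping1 by 1.15. Of 17 genes of antigen presentation and complement 5 lay 2-fold or more above day 0 and 0 below it (median 0.23). The chemokine gene Ccl8 read 8.82 at day 0 and 10.61 at day 2, and Il15 stood 1.43 higher. Chemokines, cytokines and receptors lay near 0 as a group, with 3 of 37 genes at least 2-fold higher, 17 below 0 and a median of 0.10.

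Of 41 genes of small proteoglycans and matricellular proteins, 5 lay 2-fold or more above day 0 and 1 below it (median 0.26). Periostin (Postn) read 9.15, 9.09, 12.08 and 13.41 on the 4 time-course arrays. The collagen-binding decorin (Dcn) stood 2.41 higher on its brightest probe set and 0.16 on the other. Tenascin C (Tnc) was the lower member at -2.15, with -2.73 on its other probe set. Collagens stayed near 0 (34 genes, median -0.17), apart from Col12a1 (1.26), Col18a1 (-2.19) and the procollagen enhancer Pcolce2 (-2.15), and Col12a1 dropped to 0.45 with the mean of all probe sets. The gelatinase Mmp2 stood 1.66 higher, and the urokinase receptor Plaur differed by -1.81. Of 12 fibroblast markers, 9 were kept and 2 were past 2-fold (Postn and Dcn), and the 12 summed to 67512 at day 0 and 72929 at day 2. Their part in the matrix values was not tested.

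Genes best known from neurons were among the lowest. Nefl, the light neurofilament chain, read 12.47, 13.14, 9.49 and 8.59 on the growth medium, day 0, day 2 and day 4 arrays, a difference of -3.66. Nefm differed by -3.27 and Gap43, a growth cone protein, by -2.81. The tubulin-binding Stmn2 read 12.61, 12.65, 10.11 and 10.94, and the neuronal tubulin Tubb3 differed by -2.23. Of 15 neuron and glia markers 12 were kept and 6 were at least 2-fold lower, and the 15 summed to 26777 at day 0 and 7896 at day 2. Syp, another defining marker of that list, showed no such difference, with 11.07 at day 0 and 11.32 at day 2 (0.25 higher). Dcx and Rbfox3 differed by -0.02 and 0.07. They read only 8.08 and 8.09 at day 0, close to the filter level, so their small differences say little. The keratin Krt19 read 10.77, 11.10, 8.10 and 9.10, while the epithelial markers Epcam and Krt8 differed by 0.06 and -0.07. Krt19 was the only 1 of 7 kept epithelial markers past 2-fold (median 0.06). Cdh1, an epithelial marker below the filter level and not kept, went the other way, with 5.88 at day 0 and 7.76 at day 2.

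Lists of DNA repair, the nuclear envelope and microtubules held larger shares of lower genes than the 2.96% of all kept genes. Of 42 DNA repair genes 14 lay 2-fold or more below day 0 (median -0.58), among them Brca1 (-1.77) and Rad51ap1 (-2.12), while the nucleotide excision repair gene Xpc differed by 0.60. Of 29 nuclear envelope genes 10 did so (median -0.74). In the microtubule list 6 of 30 genes were at least 2-fold lower, with the microtubule-destabilising Stmn1 at -1.46, and the doublecortin-like kinase Dclk1 stood 1.34 higher. Of 37 genes of non-muscle and smooth muscle actomyosin 3 were at least 2-fold lower (median -0.25): Tagln2 (-1.11), S100a10 (-1.02) and, just at the threshold, filamin A (Flna). After loess scaling 1 of the 3 stayed past 2-fold. Of 9 kept smooth muscle markers 6 lay above 0 and 3 below it (median 0.38). They ran from Actg2 at -0.50 to Synpo2 at 1.85, with Tagln at 0.62 and Smtn at -0.33. Under other scalings, filters or probe set choices Synpo2 fell as low as 0.84.

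Stress and supply pathways lay close to the median of all genes. Of 30 detoxifying and antioxidant genes Gpx3 (1.06) was past 2-fold, and of 30 cholesterol and fatty acid synthesis genes Dhcr7 (1.02), the last enzyme of cholesterol synthesis. In the unfolded protein response the co-chaperone Dnajb9 stood 1.24 higher and the chaperone Hspa5 0.26. Of 28 genes of amino acid stress and synthesis Shmt2 differed by -1.08, or by -0.76 with the mean of all probe sets. None of 16 circadian genes reached 2-fold. Among iron genes the ferroxidase Cp stood 1.93 higher and the iron exporter Slc40a1 1.27. Of 29 p53 target and apoptosis genes Trp53inp1 stood 1.35 higher (0.95 with the mean of all probe sets) and Casp8 differed by -1.31, and Mdm2, a target and inhibitor of p53, differed by 0.41.

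Further genes with large differences have roles apart from those above. Frmd4b, a scaffold of the cell cortex, read 7.33 at day 0 and 10.93 at day 2 on its brightest probe set, while the differences of its others ran from -0.02 to 2.82 and their mean with it was 1.60. Dhrs7c, an enzyme of the muscle reticulum, stood 2.87 higher, and the integrin-binding Itgb1bp2 (melusin) 2.98. The immunoglobulin family gene Igsf5 read 9.79, 10.59, 7.44 and 7.32 on the 4 time-course arrays. Hnmt, which inactivates histamine, read 7.20, 7.99, 5.37 and 5.64, so all but its day 0 value lay below the filter level.

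The stable day 0 lines share no array with this comparison, and lie on another scale, with medians of 7.15, so they are read against each other only. Zbtb18, the target of the hairpin, read 11.69 with the control vector and 11.16 with shRp58. On the arrays of these lines, shRp58 minus control had a median of -1.12 over the 21 thick filament genes and -0.93 over the 18 thin filament genes. The median was 0.60 over the 42 centromere and kinetochore genes and 0.55 over the 26 origin licensing genes.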

How the data were processed

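Mouse C2C12 RNA was read on 6 Affymetrix whole-genome mouse arrays, 1 per group, so no group has a replicate. The deposited values are log2 intensities made by the authors, who state the RMA method and 10 ug of cRNA per array in the series' design text. Which software ran it is not given in the sources used here, nor is its version. The table holds 45101 probe sets, of which 34958 have 1 gene in the platform annotation, 932 several and 9211 none, and 34754 Entrez IDs matched the RefSeq table of GRCm38.p6. Groups come from the sample titles. The brightest probe set over the 6 arrays stood for a gene, genes were kept when their highest value reached 7.95, and differences were centred on the median of all genes. With 1 array a side nothing was tested. A difference past 2-fold (1 on the log2 scale) was counted. Genes named are the 20 highest and 20 lowest among those at the filter level on both arrays, the 10 highest and 10 lowest among those at it on 1 array, and members of 63 lists and 11 marker lists. Other genes, the complexes and the paralogue pairs were chosen after their values were seen. The comparison and the lists were chosen with earlier results of these data known. Motifs were searched on both strands of RefSeq promoters of 300 bases. Python 3.11.15, numpy 2.4.6, pandas 2.3.3, statsmodels 0.14.6 and matplotlib 3.10.9 were used. The rule was run on simulated data with planted changes past 2-fold and little noise. That run checks the calculation only and says nothing about the precision of the counts given here. Alternatives were other scalings, filters, probe set choices and fold thresholds.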

Additional observations from a re-analysis of the deposited data

How the results depend on the processing

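The counts of genes at least 2-fold apart, 354 higher and 392 lower, ranged from 279 to 389 and from 308 to 399 under the scaling, filter and probe set alternatives, apart from a filter on the mean of the other 4 arrays, which left 226 genes higher. That filter keeps fewer genes, 9097. At 1.5-fold the counts were 885 and 1105, and at 3-fold 148 and 157. The share of higher genes among those past 2-fold was 47.5%, and lay between 42.3% and 51.5% under the alternatives. No list median of at least 0.2 in size and no difference of the 380 genes followed changed sign under any alternative that gave it a value. Of the comparisons of list medians with an alternative, 494 moved by less than 0.32, the robust standard deviation of all differences, and 10 moved by more. For single genes 2798 moved by less and 98 by more. No paired analysis was possible because each group held 1 array, and no array could be left out. Genes below 7.95 on either array rest on dim probe sets, so their sizes are not exact.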

Other observations

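Genes outside the lists also lay far from 0, and those named here were chosen after their values were seen. No theme is drawn from them, since they were picked one by one. Apoe, which carries lipids between cells, read 6.64, 6.58, 9.51 and 9.31 on the growth medium, day 0, day 2 and day 4 arrays. Mttp, which loads lipid onto lipoproteins, stood 2.48 higher (1.66 on its other probe set), the cholesterol exporter Abca1 1.37 higher on its brightest probe set, against 0.14 to 0.26 on the others, and Ch25h, which hydroxylates cholesterol, 1.90 higher. The deiodinase Dio2, which activates thyroid hormone, stood 1.72 higher (0.74 at most on its other probe sets), Hsd11b1, which regenerates glucocorticoid, 2.00 higher and the growth hormone receptor Ghr 1.28 higher (0.80 at most on its other probe sets). Smpx, a small muscle protein, read 7.18, 10.08, 13.17 and 13.84 on the 4 time-course arrays, the cytidine deaminase relative Apobec2 stood 2.44 higher (0.37 on its other probe set), the kinase Srpk3 2.06 higher (from -0.14 to 1.62 on the others) and Prkag3, a regulatory subunit of AMP kinase in muscle, 1.55 higher.

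On the lower side, the water channel Aqp1 read 11.99, 12.09, 9.62 and 9.32 on the growth medium, day 0, day 2 and day 4 arrays. The urea transporter Slc14a1 read 8.67, 10.31, 6.83 and 6.89, with its day 0 value the highest of the 4. The mast cell protease gene Mcpt8 read 10.76 at day 0 and 8.44 at day 2. Cd24a read 9.36, 9.18, 7.01 and 10.69, so day 2 held its lowest value. Of 12 kept Sm and LSm genes, which encode the protein rings of spliceosomal RNAs, 12 lay below 0 and 5 of them by 2-fold or more (median -0.68). Among probe sets without a gene of their own, 4329 were kept, of which 45 (1.04%) lay 2-fold or more above day 0 and 70 (1.62%) below it, with differences from -3.07 to 3.44.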
